A study of Mus musculus with 6 samples.

Results

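The genes described here encode the enzymes that modify drugs and other foreign compounds in the small intestinal epithelium. They are the cytochrome P450 genes of families Cyp1 to Cyp4, the UDP-glucuronosyltransferases (UGT) of Ugt1a, Ugt2a and Ugt2b, the sulfotransferases (SULT) and the carboxylesterases (CES). They were chosen by a rule on gene symbols, set with earlier results of these data known, and pseudogenes were left out. This gave 101 genes among the 21255 of the table. Of these, 60 were P450, 17 UGT, 8 SULT and 16 carboxylesterase genes.

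The cultures were organoids grown from mouse small intestinal crypts, that is, epithelium that forms buds and a lumen in Matrigel in medium with EGF, Noggin and R-spondin1. Control organoids were C/EBPα Flox/Flox without the VillinCreERT2 transgene (the sample labels call them wildtype). C/EBPα KO organoids carried that transgene, whose Villin promoter drives a 4-OHT activated Cre recombinase in intestinal epithelium. All cultures of both genotypes received 4-OHT. The labels give 400 nM for 2 days, whereas the study's methods state a higher dose over the same time. Each genotype had 3 libraries, but only the control libraries S1, S2 and S3 have a value column whose name matches a sample label. The other 3 columns match none and could have been given to the KO libraries only by elimination, so they were not used, and no difference between genotypes is given. The labels do not say whether the control libraries came from separate mice or cultures. Of the sex-linked transcripts given next, Xist set S1 apart from S2 and S3, which were alike. The Y-linked genes also differed between S2 and S3. These values do not show how many sources there were.

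The unit is the normalized count, which is the number of reads on a gene divided by 1 factor per library. A single read was worth 0.946, 1.07 and 1.15 normalized counts in S1, S2 and S3, which held 36.8, 32.9 and 30.4 M reads on genes. A count of 3 reads equals 2.84, 3.21 and 3.45 normalized counts in these libraries, and a gene below it cannot be told from one without transcripts at this depth. Xist had 18.9, 15423 and 14769 normalized counts in S1, S2 and S3. The Y-linked genes Eif2s3y (2113, 98 and 10 reads) and Ddx3y (1327, 63 and 2 reads) were highest in S1 and also higher in S2 than in S3. All 8 enterocyte markers examined were expressed, and Sis had the most normalized counts. Per kb of transcript length, Fabp1 (mean 322082), Apoa4 and Apoa1 stood above Sis (43976). Of 8 hepatocyte markers listed, 4 have a row. Alb had 44.5, 93.0 and 61.0 normalized counts, Serpina1a at most 7.48 and Tat 1 read in each library, and the fourth is Cyp2e1, itself one of the genes described. Their sum was 85.2, 162 and 130.

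Drug metabolism is commonly divided into a first phase, in which P450 enzymes oxidise a compound or esterases cleave it, and a second phase, in which UGT and SULT enzymes attach glucuronic acid or sulfate so that it can be excreted. P450 enzymes sit in the membrane of the endoplasmic reticulum and receive electrons from P450 oxidoreductase (Por). In the small intestine these reactions take place mainly in enterocytes and act on swallowed compounds before they reach the liver.

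A gene was counted as expressed at a mean of at least 10 normalized counts, which 71 of 101 genes reached (70.3%), which is near the 64.9% of all 21255 genes. The share was 40 of 60 for P450, 13 of 17 for UGT, 5 of 8 for SULT and 13 of 16 for carboxylesterase genes. A mean of at least 1000 was reached by 41 genes (40.6%), beside 29.1% of all genes, and of at least 10000 by 14 (13.9%), beside 2.68% (570 genes). The 101 genes together held 1.26%, 1.30% and 1.32% of all normalized counts in S1, S2 and S3. Their sum was 453104 ± 11605 normalized counts (SD, n = 3), of which P450 genes gave 194149 ± 4667, carboxylesterases 136413 ± 5189, UGT genes 104847 ± 5079 and SULT genes 17695 ± 1516.

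**Figure D1:**
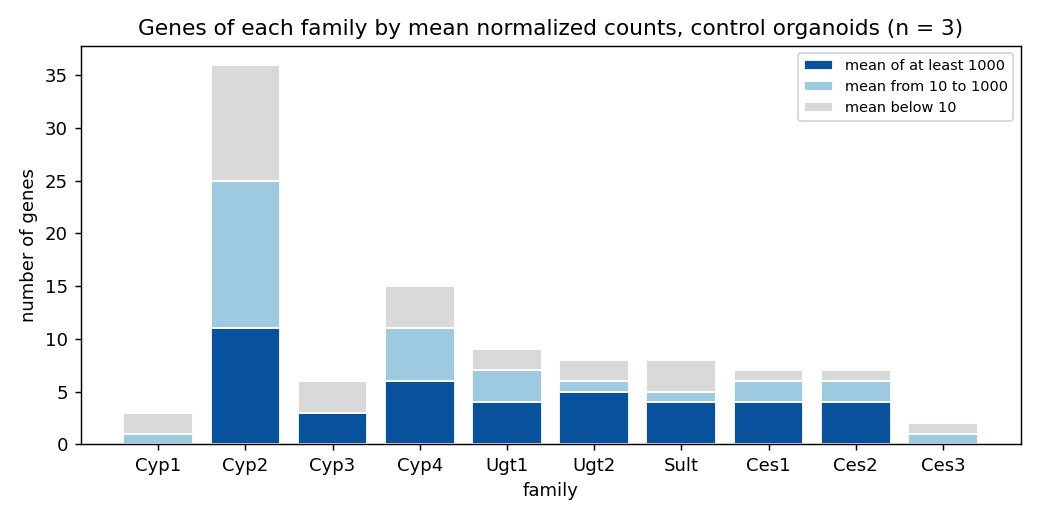
Number of genes (vertical axis) in each family (horizontal axis) by mean normalized counts over the 3 control libraries. All 3 expressed Cyp3 genes were above a mean of 1000, whereas 14 of 25 expressed Cyp2 genes were below it.

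The other 30 genes lay below the threshold. No read was counted in any library for 6 of them, Cyp1b1, Cyp2b23, Cyp2d12, Cyp3a57, Cyp4a29 and Ugt2a2. The other 24 had means from 0.315 to 9.99 normalized counts, and 18 of the 30 had no more than 3 reads in every library. Just below the threshold were Cyp2d11 (mean 9.99) and Cyp3a59 (9.65), and just above it were Cyp1a1 (10.8) and Cyp2d40 (10.9). A further 39 annotated coding genes with matching symbols have no row in the table, among them Cyp2a5, Cyp2b9, Cyp4a14, Sult1e1, Sult2a1 and Ces1a, and were not analysed here.

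To compare genes of unequal length, normalized counts were divided by the length in kb of the longest annotated transcript. On this scale the P450 sum was 85644 ± 1984 per kb, the carboxylesterase sum 61688 ± 2335, the UGT sum 34347 ± 1358 and the SULT sum 7980 ± 655 (SD, n = 3). The plot of levels shows that the levels within each group are spread widely and that the libraries lie close together for the high genes. Of the 67 pairs of genes that are neighbours in the order of levels within a group, 33 had ranges over the 3 libraries that did not overlap. Orders and shares per kb depend on the length used. Coding length is given as well where it changes the order of the genes named as highest. Elsewhere an order per kb is that per kb of transcript only.

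**Figure D2:**
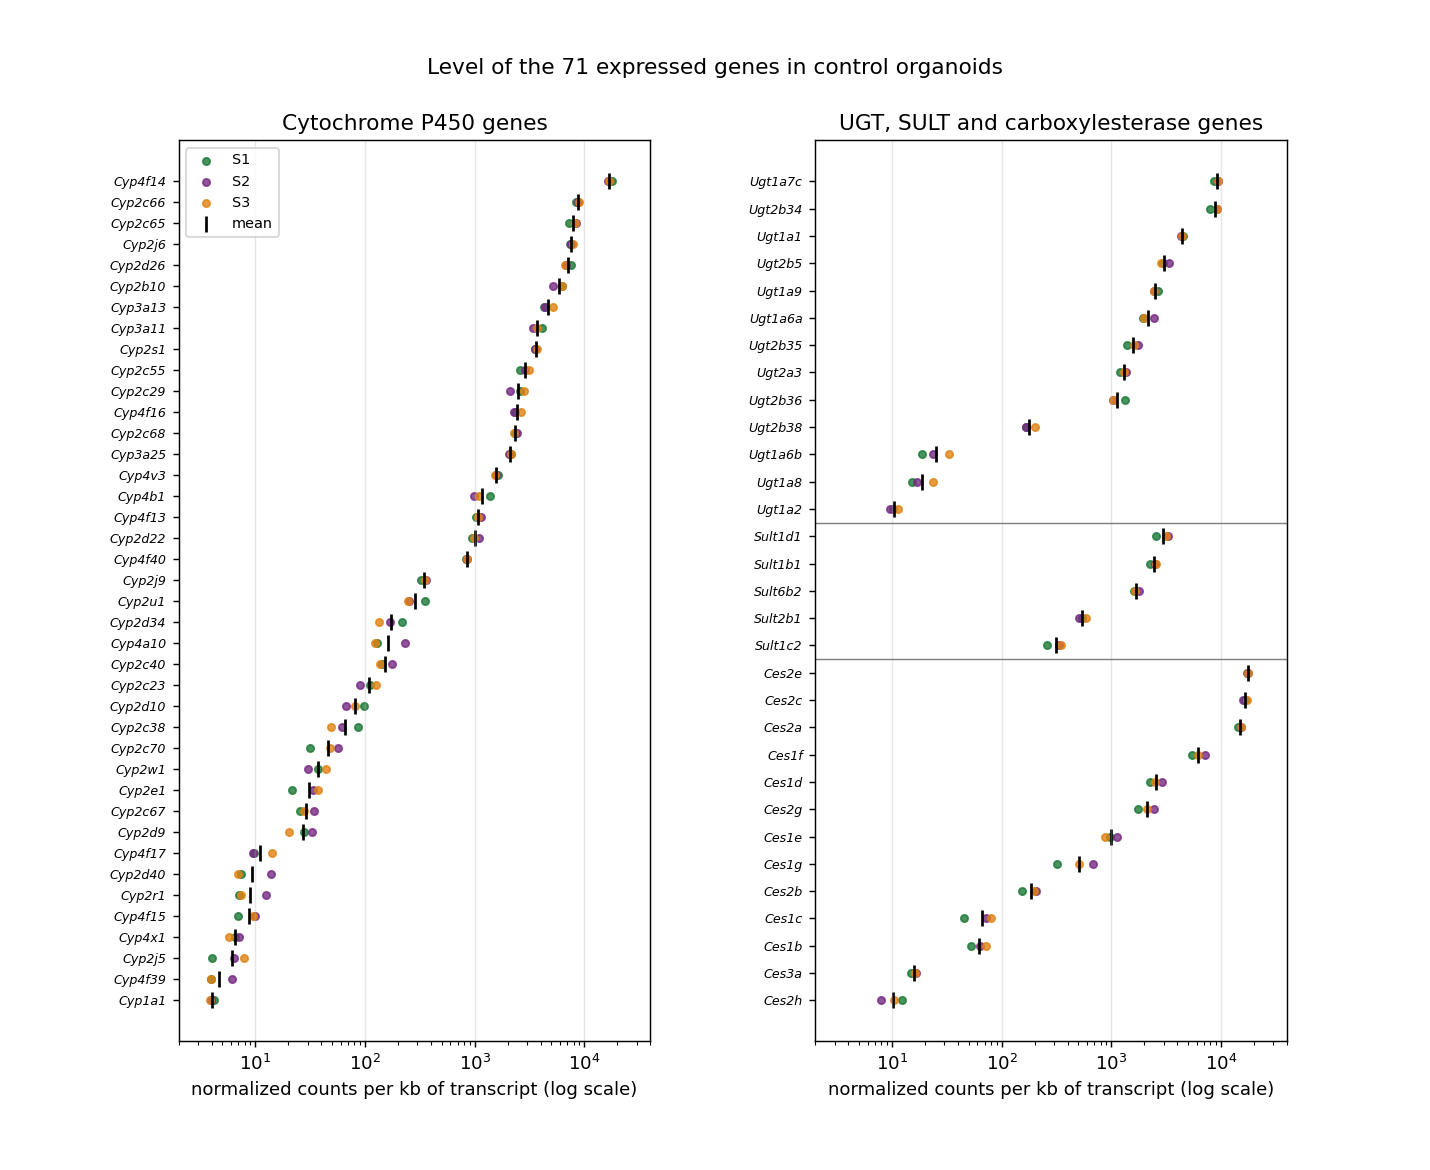
Level of each expressed gene in normalized counts per kb of transcript (horizontal axis, log scale), with 1 point per control library and a bar for the mean. On this scale Ces2e, Cyp4f14, Ces2c and Ces2a are the highest genes, and Cyp1a1 is among the lowest. Per kb of coding length Ces2e (28195) and Cyp4f14 (23895) are highest too. Ugt2b34 (23844) then ranks above Ces2c (19331), and Ugt1a7c (18936) and Cyp2j6 (18257) rank above Ces2a (17505).

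Carboxylesterases hydrolyse ester and amide bonds of many drugs and prodrugs, and several of the Ces2 type are known from intestine. Ces2e had 46379, 47949 and 47522 normalized counts in S1, S2 and S3. Ces2c had 32658, 31246 and 33698 normalized counts, and Ces2a had 27987, 29980 and 29943. These were the 3 highest carboxylesterases in each library, and per kb of transcript they stood at 17519 ± 301, 16515 ± 625 and 14951 ± 582 (SD, n = 3), with ranges that did not overlap. Per kb of coding length they kept this order, at 28195 ± 484, 19331 ± 731 and 17505 ± 681. The level of Ces2e per kb of transcript was above that of 98.9% of the 12345 expressed genes with a transcript length. The 3 genes held 81.4%, 77.0% and 80.0% of the carboxylesterase sum per kb in S1, S2 and S3.

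Other Ces2 genes were far lower. Ces2g had 5051, 6945 and 6107 normalized counts, with S1 lowest. It ranked below Ces1d per kb of transcript (2111 ± 332 against 2557 ± 307) and above it per kb of coding length (3592 ± 565 against 3023 ± 363). Ces2b had 525, 698 and 671 normalized counts. Ces2h had 30.3, 19.2 and 25.3 normalized counts. Ces2f, with 2.84, 3.21 and 8.06, did not pass the threshold and was at 3 reads in S1 and S2.

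The upstream sequences of some Ces2 genes are shown because members of this gene cluster differ so widely in level. They were chosen after the levels had been seen. Each is the 100 bases before the first annotated start of the gene, taken from RefSeq on build GRCm38.p6 (not the mm9 build that the submitters name), on the plus strand, 5′ to 3′. Capitals mark ACTTTG, the reverse complement of CAAAGT, which is the core of the sequence that nuclear receptors of the HNF4 type recognise.
Ces2a, chr8:104733903-104734002: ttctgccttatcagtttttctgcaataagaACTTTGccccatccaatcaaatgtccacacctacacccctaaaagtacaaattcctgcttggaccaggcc
Ces2c, chr8:104846968-104847067: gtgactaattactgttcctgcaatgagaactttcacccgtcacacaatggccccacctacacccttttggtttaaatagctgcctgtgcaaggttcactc
Ces2e, chr8:104926160-104926259: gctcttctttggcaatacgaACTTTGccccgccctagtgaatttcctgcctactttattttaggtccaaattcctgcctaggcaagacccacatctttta
Ces2f, chr8:104947256-104947355: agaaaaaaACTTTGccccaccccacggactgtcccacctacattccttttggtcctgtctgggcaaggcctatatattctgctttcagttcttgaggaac

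In the 250 bases before the start, 4 of 6 Ces2 genes with a promoter in the RefSeq table held CAAAGT on either strand. The match began 70 bases before the start in Ces2a, 80 in Ces2e, 92 in Ces2f and 117 in Ces2g. Ces2c and Ces2h held none in this window. The letters stood before both Ces2e, at a mean of 47284 normalized counts, and Ces2f, at 4.70. Of the other motifs searched, the C/EBP letters TTGCNNAA, not marked in capitals, were found in 2 of the 6 genes, Ces2a and Ces2e, while those for HNF1, CDX and the aryl hydrocarbon receptor, given next, were found in none.

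Over all groups, 86 of 101 genes had a promoter in that table. CAAAGT, on either strand of the 250 bases before the start, was found in 24 of these 86 (27.9%), beside 12.5% of all 27025 promoters and 10.5% of the 10219 promoters of expressed genes. It stood in 16 of 59 expressed genes (27.1%) and in 8 of 27 genes that were not expressed (29.6%). GTTAAT, the core of the HNF1 site, was found in 16.3% of the 86 and in 6.52% of all promoters. Among expressed genes it was in 15.3% of the 59 and 3.96% of all, and it was in 18.5% of the 27 unexpressed genes. The C/EBP letters TTGCNNAA were found in 18.6% of the 86 and 9.55% of all. Among expressed genes they were in 18.6% of the 59 and 7.24% of all, and they were in 18.5% of the 27 unexpressed genes. TTTATNG (CDX) was found in 11.6% of the 86 and 10.2% of all promoters, and among expressed genes in 13.6% and 6.31%. It was in 7.41% of the 27 unexpressed genes. GCGTG, the core of the aryl hydrocarbon receptor site, was found in 16.3% of the 86 and 28.2% of all. Among expressed genes it was in 18.6% and 45.3%, and it was in 11.1% of the 27 unexpressed genes. These are counts of letters on both strands, with each motif searched on its own, and say nothing of binding. The promoters set beside those of the 86 genes were not matched for base composition.

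Among the Ces1 genes, whose best known products act in liver and plasma, Ces1f led with 10397, 13644 and 11777 normalized counts. It held 59.7 ± 0.392% of the Ces1 sum per kb of transcript. Ces1d had 4556, 5776 and 5038 normalized counts, and Ces1e had 2016, 2351 and 1802. S2 was highest for each of these genes. Ces1g, with 764, 1621 and 1220 normalized counts, differed most between libraries among genes above 1000, with a highest value 2.12 times the lowest. Ces1b had 102, 125 and 142 and Ces1c 83.3, 131 and 145. Of the Ces3 genes, Ces3a had 30.3, 34.2 and 33.4, and Ces3b had 1 read in S1 only.

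The P450 genes were led by Cyp4f14, of the Cyp4f subfamily that oxidises leukotrienes and long-chain fatty acids. It had 39345, 36446 and 36899 normalized counts in S1, S2 and S3. Per kb of transcript its level was 16913 ± 702 (SD, n = 3), or 19.8 ± 0.830% of the P450 sum and 69.9 ± 0.635% of the Cyp4 sum. Its range lay wholly above that of the next P450 gene, Cyp2c66.

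Next in the P450 order per kb of transcript came Cyp2c66 (8691 ± 306), Cyp2c65 (7952 ± 665), Cyp2j6 (7612 ± 303) and Cyp2d26 (7052 ± 442), and each of these overlapped its neighbour. Cyp2c66 had 13652, 14200 and 14647 normalized counts, and Cyp2c65, its close paralogue, had 13876, 16293 and 15826. Cyp2j6, of a subfamily that oxidises arachidonic acid, had 26517, 27157 and 28648, the highest Cyp2 count. Its place depends on the length used. Its transcript of 3605 bases is longer than those of Cyp2c66 (1630) and Cyp2c65 (1928), while the coding lengths are close (1503, 1470 and 1470 bases). Per kb of coding length Cyp2j6 stood at 18257 ± 727, above Cyp2c65 (10430 ± 872) and Cyp2c66 (9637 ± 339) in every library and second to Cyp4f14 (23895 ± 992). On that scale the mean of Cyp3a13 (9082 ± 960) was also above that of Cyp2d26 (7992 ± 501), though not in S1 (8410 against 8564). Cyp2d26 had 12847, 11672 and 11446 normalized counts, and Cyp2s1 had 11302, 11255 and 11720. The 5 highest P450 genes held 56.3 ± 1.01% of the P450 sum per kb. The 5 highest held 81.4 ± 0.600% for UGT, 93.6 ± 0.812% for carboxylesterase and 99.9% for SULT genes. These groups have only 13, 13 and 5 expressed genes, beside 40 P450 genes, so the shares do not compare how evenly the groups are spread.

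Cyp2b10, Cyp2c29 and Cyp3a11 are known as genes that foreign compounds induce through the nuclear receptors CAR (Nr1i3) and PXR (Nr1i2). Cyp2b10 had 11896, 9853 and 12108 normalized counts, Cyp2c29 had 4640, 3721 and 5027, and Cyp3a11 had 9550, 7984 and 8731. All 3 were lowest in S2. Cyp2c55 had 5125, 5713 and 6286 normalized counts and was lowest in S1. Cyp2c68, with 4046, 4212 and 3897, varied less.

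In the Cyp3 family, which holds the main drug-oxidising P450 enzymes, 3 genes carried nearly all of the signal. Cyp3a13 had 12691, 13057 and 15364 normalized counts and held 44.2 ± 3.09% of the Cyp3 sum per kb. Cyp3a11 held 35.6 ± 2.73% and Cyp3a25, at 4291, 4080 and 4298 normalized counts, held 20.2 ± 0.670%. Cyp3a59 (mean 9.65) and Cyp3a41a (6.83) lay below the threshold. Of the 75-base stretches of Cyp3a41a, 95.3% occur in other genes and 91.1% in Cyp3a41b, so its few reads cannot be assigned to it with confidence.

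The Cyp1 family, whose members are induced through the aryl hydrocarbon receptor, was almost silent. Cyp1a1 had 11.4, 10.7 and 10.4 normalized counts, from 12, 10 and 9 reads. Cyp1a2, a classic liver gene, had 2 reads in S1, none in S2 and 1 in S3. Cyp1b1 had no read. The receptor itself was expressed, with 871, 874 and 871 normalized counts of Ahr. Cyp2e1, another gene typical of liver, had 39.7, 60.9 and 67.9 normalized counts.

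Of the remaining Cyp4 genes, Cyp4v3 had 6176, 5965 and 5856 normalized counts and Cyp4f16 had 5243, 5147 and 5897. Cyp4b1 had 2627, 1883 and 2075, with S1 highest. Cyp4f13 had 1816, 1993 and 1876, and Cyp4f40, with 1854, 1893 and 1887, had the smallest relative spread of all expressed genes of the 4 groups. Cyp4a10, a fatty acid hydroxylase induced through PPARα, was far lower, with 273, 492 and 258 normalized counts.

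**Figure D3:**
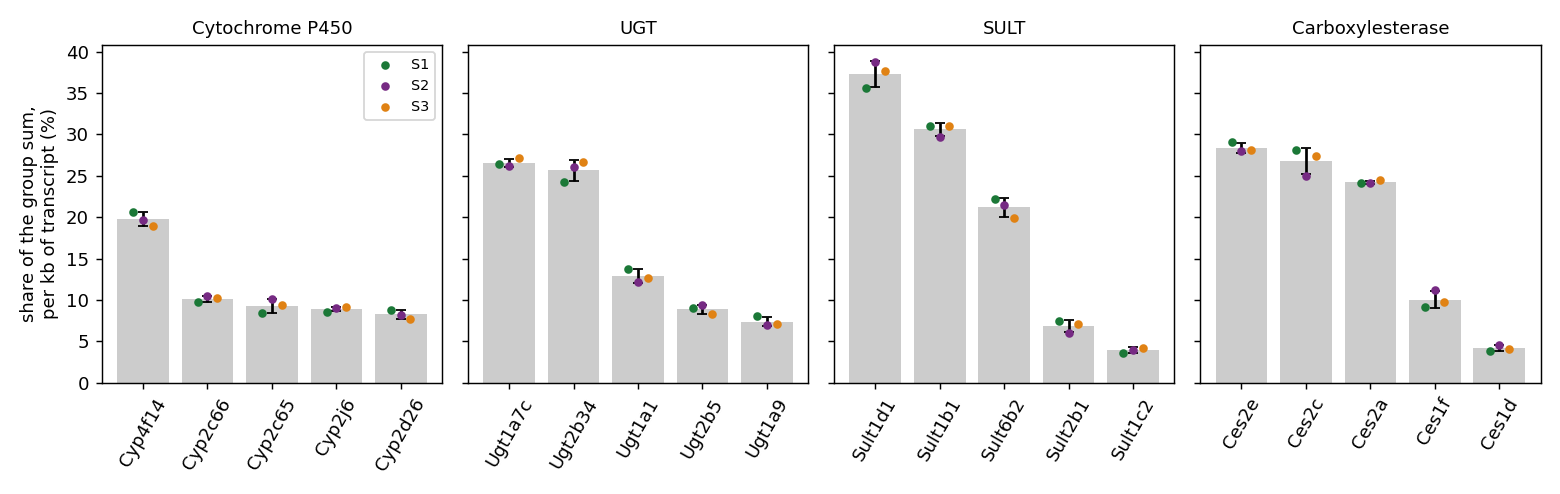
Share of the group sum per kb of transcript (vertical axis, %) of the 5 highest genes in each group, with bars for the mean, whiskers for the SD (n = 3) and points for the control libraries. Cyp4f14 holds 19.8% of the P450 sum, whereas the highest SULT gene, Sult1d1, holds 37.3% of its group (18.7% and 41.3% per kb of coding length).

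UGT enzymes transfer glucuronic acid to bilirubin, steroids and drugs. Ugt2b34 had 34384, 40013 and 39766 normalized counts and was lowest in S1. Ugt1a7c had 28757, 30838 and 30901 normalized counts, also lowest in S1. Per kb of transcript Ugt1a7c stood at 9135 ± 369 and Ugt2b34 at 8825 ± 738 (SD, n = 3), with overlapping ranges, and they held 26.6 ± 0.471% and 25.7 ± 1.30% of the UGT sum. Per kb of coding length the order was the reverse, with Ugt2b34 at 23844 ± 1993 above Ugt1a7c at 18936 ± 766 in every library. Ugt1a1, the bilirubin-conjugating enzyme, had 10084, 9666 and 9733 normalized counts, or 4419 ± 101 per kb of transcript, wholly below both.

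Ugt1a9 had 5793, 5410 and 5386 normalized counts and Ugt1a6a, which conjugates phenols, had 4494, 5680 and 4607. Of the Ugt2 genes, Ugt2b5 had 5495, 6176 and 5290, Ugt2b35 had 4698, 5878 and 5426, Ugt2a3 had 2541, 2909 and 2768, and Ugt2b36 had 2510, 1960 and 1952. Ugt2b38 was lower, with 316, 317 and 379. Ugt1a6b, Ugt1a8 and Ugt1a2 had means of 58.0, 41.5 and 23.1 normalized counts. Ugt1a5 had no read in S1 and 18.2 and 5.75 normalized counts in S2 and S3, and its mean of 7.97 was below the threshold.

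The Ugt1a genes are alternative first exons of 1 locus joined to shared later exons. Stretches of 75 bases, the length of 1 read end, were taken from the longest coding transcript of each gene. Of these, 57.7% (Ugt1a1) to 100% (Ugt1a6a) also occur in a transcript of another gene, over all 9 Ugt1a genes. Values of single Ugt1a genes therefore rest on how the counting program divided such reads, whereas the Ugt1 sum of 50580 ± 1261 normalized counts does not depend on that division within the locus. Over all 101 genes, 60 shared at most 5% of their stretches with another gene, 21 shared over 5% and up to 25%, and 20 shared over 25%. Among expressed genes outside Ugt1, Cyp2c40 (57.1%), Cyp2c67 (36.0%), Ugt2b5 (30.4%), Cyp2c68 (28.5%), Ugt2b38 (28.0%), Cyp2d10 (26.7%) and Ces2c (25.9%) had the largest shares. Ces2e (0.343%), Cyp4f14 (0.186%) and Ugt2b34 (0.873%), the highest genes of their groups by normalized counts, shared almost nothing.

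**Figure D4:**
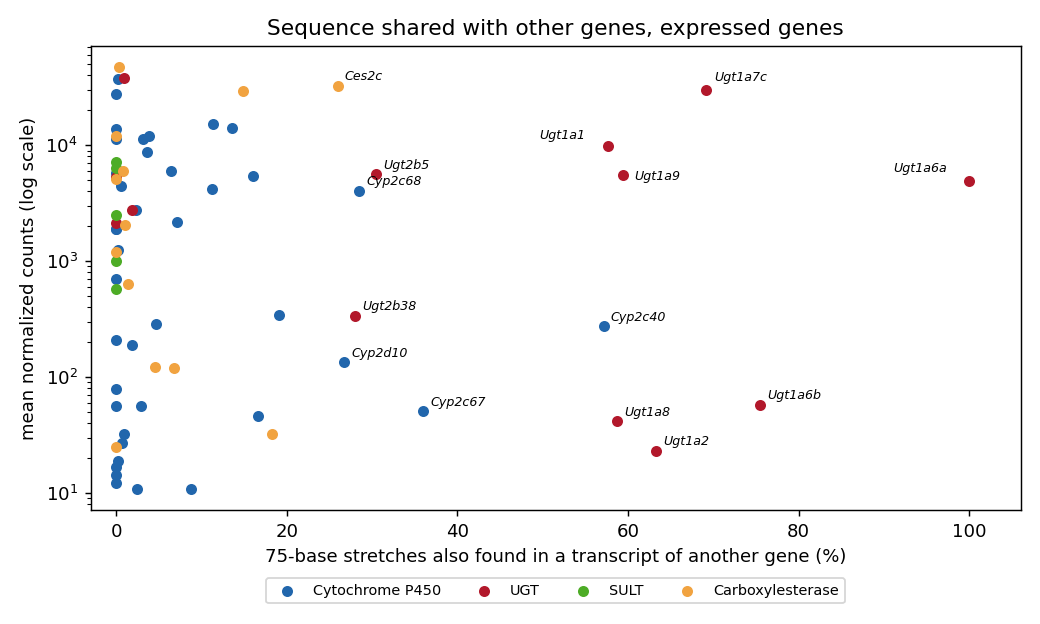
Mean normalized counts (vertical axis, log scale) against the percentage of shared 75-base stretches (horizontal axis), with 1 point per expressed gene coloured by group. Shared stretches are those of a gene's longest coding transcript that also occur in a transcript of another gene. The Ugt1a genes lie between 57.7% and 100%, and all 5 expressed SULT genes lie at 0.

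SULT enzymes transfer sulfate from the donor PAPS to phenols, steroids and amines. Sult1d1 had 6228, 7879 and 7572 normalized counts, and Sult1b1, which acts on phenols and thyroid hormones, had 5863, 6531 and 6738. Both were lowest in S1. Per kb of transcript they were at 2986 ± 363 and 2441 ± 175 (SD, n = 3), with ranges that overlapped narrowly. Sult6b2 followed with 2368, 2657 and 2445 normalized counts, and these 3 genes held 89.2 ± 0.654% of the SULT sum per kb. Sult2b1, which sulfates cholesterol, had 999, 935 and 1085 normalized counts and Sult1c2 had 473, 619 and 643. Sult1a1, the main phenol sulfotransferase of liver, had 3.78, 8.55 and 2.30 normalized counts and did not pass the threshold, nor did Sult4a1 (mean 6.29) and Sult6b1 (4.63).

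The genes on which these enzymes depend were expressed throughout. All 5 electron partners of P450 exceeded 1000 normalized counts, a level that 29.1% of all genes reached. Por had 18767, 19228 and 19037, and Cyb5b had 41436, 39912 and 40924. The list for cofactor supply held 9 genes (10 symbols, as Bpnt2 and Impad1 name the same gene), and all 9 exceeded 1000 too. Among them, Ugdh, which makes the donor of glucuronic acid, had 26299, 25940 and 26525. Papss2, which makes PAPS, had 21590, 27027 and 22789, and Bpnt1, which degrades the product of PAPS, had 25282, 27666 and 25681.

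Of 16 regulators listed, 15 were expressed and 13 exceeded 1000, beside 64.9% and 29.1% of all genes. Hnf4a had 37156, 35971 and 38255 normalized counts, Nr1i2 had 2295, 2299 and 2081, and Nr1i3 had 2690, 2780 and 2417. The gene deleted in the KO organoids, Cebpa, had 6446, 5829 and 6016 in the controls. Ahrr, the repressor of the aryl hydrocarbon receptor, was the regulator below the threshold, with 8.52, 5.34 and 11.5.

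Of 7 efflux transporters, which export drugs and conjugates from the cell, 6 were expressed, beside 64.9% of all genes. Abcc2 had 14736, 17001 and 16727 normalized counts and Abcb1a had 9999, 10290 and 11653. Its near copy Abcb1b had 7.57, 4.27 and 5.75. Of 20 other enzymes of foreign compound metabolism listed, 14 have a row, and all 14 were expressed. By normalized counts Fmo5, a flavin monooxygenase, led with 18021, 20219 and 19894. Cbr1, a carbonyl reductase, followed with 14029, 16608 and 14725. Per kb of transcript Cbr1 (mean 12224) was highest, and Fmo5 (3729) was also below Aadac (7853), Ephx1 (6791) and Ephx2 (4093).

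The 71 expressed genes varied more between the control libraries than genes in general. Their median coefficient of variation was 11.2%, beside 6.62% over all 13803 expressed genes. The difference depended on level. At means from 1000 to 10000 it was 8.20% for 27 of these genes and 4.21% for all genes, at 100 to 1000 it was 16.1% for 12 genes and 7.89%, and above 10000 it was 4.10% for 14 genes and 3.50%. At 10 to 100, where reads were few, it was 23.9% for 18 genes and 25.2%. These medians describe 3 libraries, and no test was made.

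The largest coefficients were those of Cyp2d40 (41.2%), Cyp4a10 (38.4%), Ces1g (35.7%), Cyp2r1 (34.2%) and Cyp2j5 (31.6%). Counting error alone gives 31.1% for Cyp2d40 and 27.4% for Cyp2j5, and these genes and Cyp2r1 had only 7 to 22 reads per library. For Cyp4a10, with 288, 460 and 224 reads, it gives 5.56%, and for Ces1g, with 807, 1517 and 1060 reads, 2.98%. S2 was highest for both Cyp4a10 and Ces1g. Counting error is the spread expected from the sampling of reads alone. It is not a lower limit, as the coefficients of Cyp4f40 and Cyp1a1 lay below theirs. No test was made of the spread beyond it. Where the mean reached 100, in 53 genes, only Cyp4a10, Ces1g, Cyp2c38, Cyp2d34 and Ces1c had a highest value over 1.5 times the lowest.

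S1 was often the lowest library. It was lowest for 37 of 71 expressed genes (52.1%), beside 35.8% of all 13803 expressed genes, whereas S2 and S3 were each lowest for 17. By group, S1 was lowest for 10 of 13 carboxylesterases, 4 of 5 SULT, 8 of 13 UGT and 15 of 40 P450 genes. The median difference between S1 and the mean of the other libraries, in log2(normalized count + 1), was -0.24 for carboxylesterases, -0.18 for SULT, -0.13 for UGT and -0.05 for P450 genes, and 0.00 over all genes. S2 stood at 0.23 for carboxylesterases on this scale. The carboxylesterase median rested mainly on Ces1, at -0.33 in S1 and 0.29 in S2, whereas Ces2, which held most of the group sum, was at -0.07 and 0.04. With all libraries scaled to the same total, S1 was lowest for 36 of the 71 genes and for 33.7% of all genes.

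**Figure D5:**
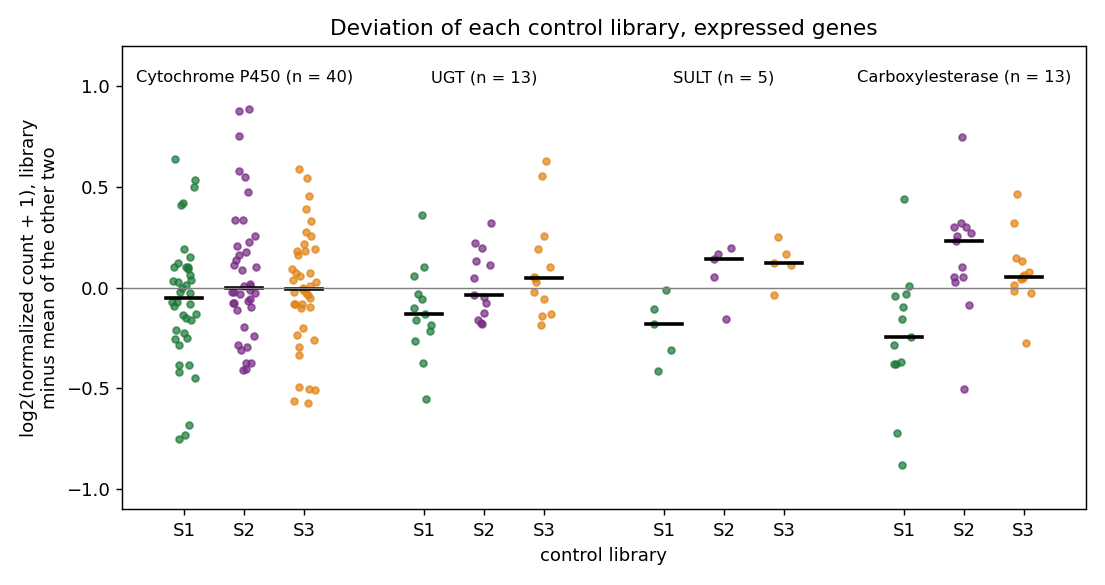
Log2(normalized count + 1) of each expressed gene in a control library relative to the average of the remaining libraries (vertical axis), by group and library (horizontal axis), with 1 point per gene and a bar for the median. Carboxylesterase genes centre at -0.24 in S1 and 0.23 in S2, and P450 genes centre near 0 in every library.

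S1 is also the library with little Xist and much Eif2s3y. Cell type markers differed between the libraries too. Of the Paneth markers, 3 of 4 were lowest in S1, namely Lyz1 (42631, 42722 and 53089 normalized counts in S1, S2 and S3), Defa24 (37721, 47632 and 44317) and Mmp7 (2664, 2827 and 3504), and Ang4 was not (3146, 3028 and 4299). Of the goblet markers, 3 of 4 were lowest in S1, namely Fcgbp (41931, 46141 and 49574), Tff3 (7308, 7762 and 8941) and Clca1 (2305, 3248 and 4304), and Muc2 was not (3439, 3089 and 3404). Of the enteroendocrine markers, Chga (1549, 1746 and 2169) and Chgb (6771, 9017 and 9977) were lowest in S1, and Neurog3 (120, 141 and 110) and Neurod1 (95.6, 85.5 and 105) were not. Of the stem cell markers, 1 of 3 was lowest in S1, Lgr5 (625, 760 and 631), and Olfm4 was highest there (17965, 15090 and 16032). Of the enterocyte markers, 3 of 8 were lowest in S1, namely Sis (252952, 262861 and 269555), Alpi (14114, 15152 and 15415) and Vil1 (28738, 29561 and 32090), and Apoa4 was highest there (116007, 87916 and 88987). The summed levels in S1, S2 and S3 were 86162, 96209 and 105210 for Paneth, 54983, 60240 and 66223 for goblet, 8536, 10990 and 12362 for enteroendocrine, 18904, 16082 and 16919 for stem cell and 672362, 668708 and 640562 for enterocyte markers. The part of sex and of cell type proportions in the lower values of S1 was not tested, and in these bulk samples fewer cells of a type and less RNA per cell cannot be told apart. The sum of hepatocyte markers, lowest in S1 as well, was at most 162 normalized counts in any library, beside a carboxylesterase sum of 130583, 140524 and 138132.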

How the data were processed

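Per the labels and the study's methods, RNA of control and C/EBPα KO organoids was made into stranded mRNA libraries, 3 per genotype, and sequenced as paired ends of 75 bases. The submitters' processing notes name Bowtie2 2.2.9, RSEM 1.2.31, DESeq2 1.14.1 and build mm9, while the annotation release is not given in the sources used here. The authors deposited 1 table with a signal per gene and library, named normalized counts. In the 3 control columns 100% of values were whole multiples of 1 read (tolerance 0.001 reads). RSEM shares reads that match several genes between them by estimation, which affects near-identical genes.

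Columns were matched to samples by name. The control libraries matched, and the 3 value columns that match no label were not used. The planned limma comparison of genotypes and its alternatives were therefore not run, and no count test was used with 1 group. Of 21256 rows, 1 repeats an identifier and was left out, and 21213 identifiers had a symbol. Of 106 matching genes, 5 pseudogenes were left out. Lengths and shared 75-base stretches came from GENCODE vM21 transcripts, and promoters from RefSeq. Named were the highest 6 genes of each family, the 5 most variable, classic liver genes and the listed pathway genes, and genes beyond these were added after their values were seen. The rule on symbols that chose the members, and the lists, were set with earlier results of these data known. SD and coefficients of variation are over 3 libraries, and a counting error covers the sampling of reads only. The calculations were tested on simulated data. Alternatives were other scalings, thresholds of 1 and 50, pseudocounts, transcript or coding length, and leaving out each library. Python 3.11.15, numpy 2.4.6, pandas 2.3.3 and matplotlib 3.10.9 were used.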

Additional observations from a re-analysis of the deposited data

How the results depend on the processing

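The number of expressed genes was 86 at a mean of at least 1 normalized count, 58 at 50, 69 when every library had to reach 10, and 71 to 73 when a library was left out. By family, a threshold of 1 gave 2 Cyp1, 5 Cyp3 and 8 Sult genes, and a threshold of 50 gave 0 Cyp1, 7 Cyp4 and 0 Ces3 genes. Shares of the group sum were 37.3% for Sult1d1, 25.7% for Ugt2b34 and 28.4% for Ces2e per kb of transcript (an alternative added after seeing the data), against 40.8%, 36.3% and 34.7% by normalized counts and 41.3%, 36.2% and 34.7% per kb of coding length. No expressed gene moved over 1.5 times when a library was left out (at most -23.7%, Cyp2d40 without S2). Another scaling moved a level by at most -0.105%. No paired analysis was possible because the genotypes could not be compared by columns matched to labels. Depth limits the 18 genes with no more than 3 reads in every library.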
